A study of Mustela putorius furo with 2 samples.

Results

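The genes described here encode potassium channels and the hyperpolarization-activated HCN channels, with their auxiliary subunits. They are all rows of the 2 count matrices whose symbol starts with KCN or HCN and has a further character, which gave 88 of 28156 rows, the same in both libraries. No measured value entered this choice.

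Single-nucleus RNA-seq was done on frozen somatosensory cortex of ferrets (Mustela putorius furo). Both libraries carry the genotype label DCX knockout, and the design text speaks of a gene that was knocked down, so no control genotype enters here. DCX is the doublecortin gene, needed for neuronal migration. An upper and a deeper band of cortex gave 1 library each, so band, animal and library preparation cannot be told apart. The titles number the libraries as replicates 1 and 2, but their region labels differ, and they were not averaged. Age, sex and the number of animals are not given in the sources used here, and wild-type tissue was not analysed here.

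Potassium channels return the membrane towards rest and set how a neuron fires: voltage-gated (Kv) subunits repolarize spikes, tandem-pore (K2P) and inwardly rectifying (Kir) channels hold the resting potential, and calcium-activated channels shape the after-hyperpolarization. HCN channels carry a mixed cation current that opens on hyperpolarization and tunes dendritic integration and rhythmic firing. In glia, potassium channels set a very negative resting potential and take part in clearing potassium released by neurons.

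The upper-band matrix held 66253015 unique molecular identifiers (UMIs) over 7151 barcodes and the deeper-band matrix 78352064 over 9694. After filters 6248 and 8211 nuclei were kept, and 24 barcode sequences occurred in both matrices, 16 of them among kept nuclei of both. DCX itself had 4106 and 4169 UMIs in kept nuclei, or 78.7 and 77.1 CPM (UMIs of a gene per 1000000 UMIs of the group). Whether these tags lie in the altered stretch of the gene cannot be seen from counts per gene. Nuclei were clustered without the channel genes and named by marker genes, so each class name means resemblance. They numbered 3178 and 3476 for excitatory neurons, 1019 and 781 for inhibitory neurons, 388 and 808 astrocyte-like, 853 and 2034 oligodendrocyte-like, 126 and 194 oligodendrocyte precursor-like, 55 and 71 microglia-like and 257 and 150 vascular or leptomeningeal-like nuclei. Upper-layer-like excitatory nuclei were 7.73% of the upper-band library and 23.4% of the deeper-band library, and deep-layer-like ones 12.6% and 2.91%, so layer markers ran against a simple reading of the band names. In all pairs of values below, the upper-band library comes first, and values are levels in CPM unless named as log2 ratios. Intervals are 95% and cover counting error only, because with 1 library per band there is no replicate error and no test was made. UMIs are not adjusted for transcript length, so each gene is compared between classes and never with another gene.

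Channel genes took 1.26% of UMIs in excitatory nuclei of both libraries and 1.36% and 1.38% in inhibitory nuclei. Their share was 0.296% and 0.255% in astrocyte-like and 0.278% and 0.286% in oligodendrocyte-like nuclei. Among the 88 members, 55 had at least 50 UMIs in the named classes of each library, and only these were ranked over classes. Their counts ran from 68 and 50 UMIs for KCNG1, a silent modifier subunit, to 125297 and 121616 for KCNMA1, the pore of the large-conductance (BK) calcium-activated channel. Another 7 members had 0 UMIs in both libraries, namely KCNA7, KCNA10, KCNE2, KCNE3, KCNE4, KCNJ15 and KCNK16, and a count of 0 allows up to 0.0575 and 0.0555 CPM at the floor of 3 counts per library. A further 17 had 1 to 49 UMIs over both libraries together, and the remaining 9 fell short of 50 in at least 1 library.

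For 38 of the 55 ranked members the same class had the highest level in both libraries, where 54.0% of all 14737 genes past the same minimum did so. That class was excitatory for 14 members, inhibitory for 10, oligodendrocyte-like for 4, astrocyte-like, oligodendrocyte precursor-like and microglia-like for 3 each, and vascular or leptomeningeal-like for 1. Over all genes the shares were 7.79% for excitatory, 6.17% for inhibitory, 8.24% for oligodendrocyte-like, 7.76% for astrocyte-like, 5.20% for precursor-like, 12.6% for microglia-like and 6.17% for vascular nuclei.

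**Figure D1:**
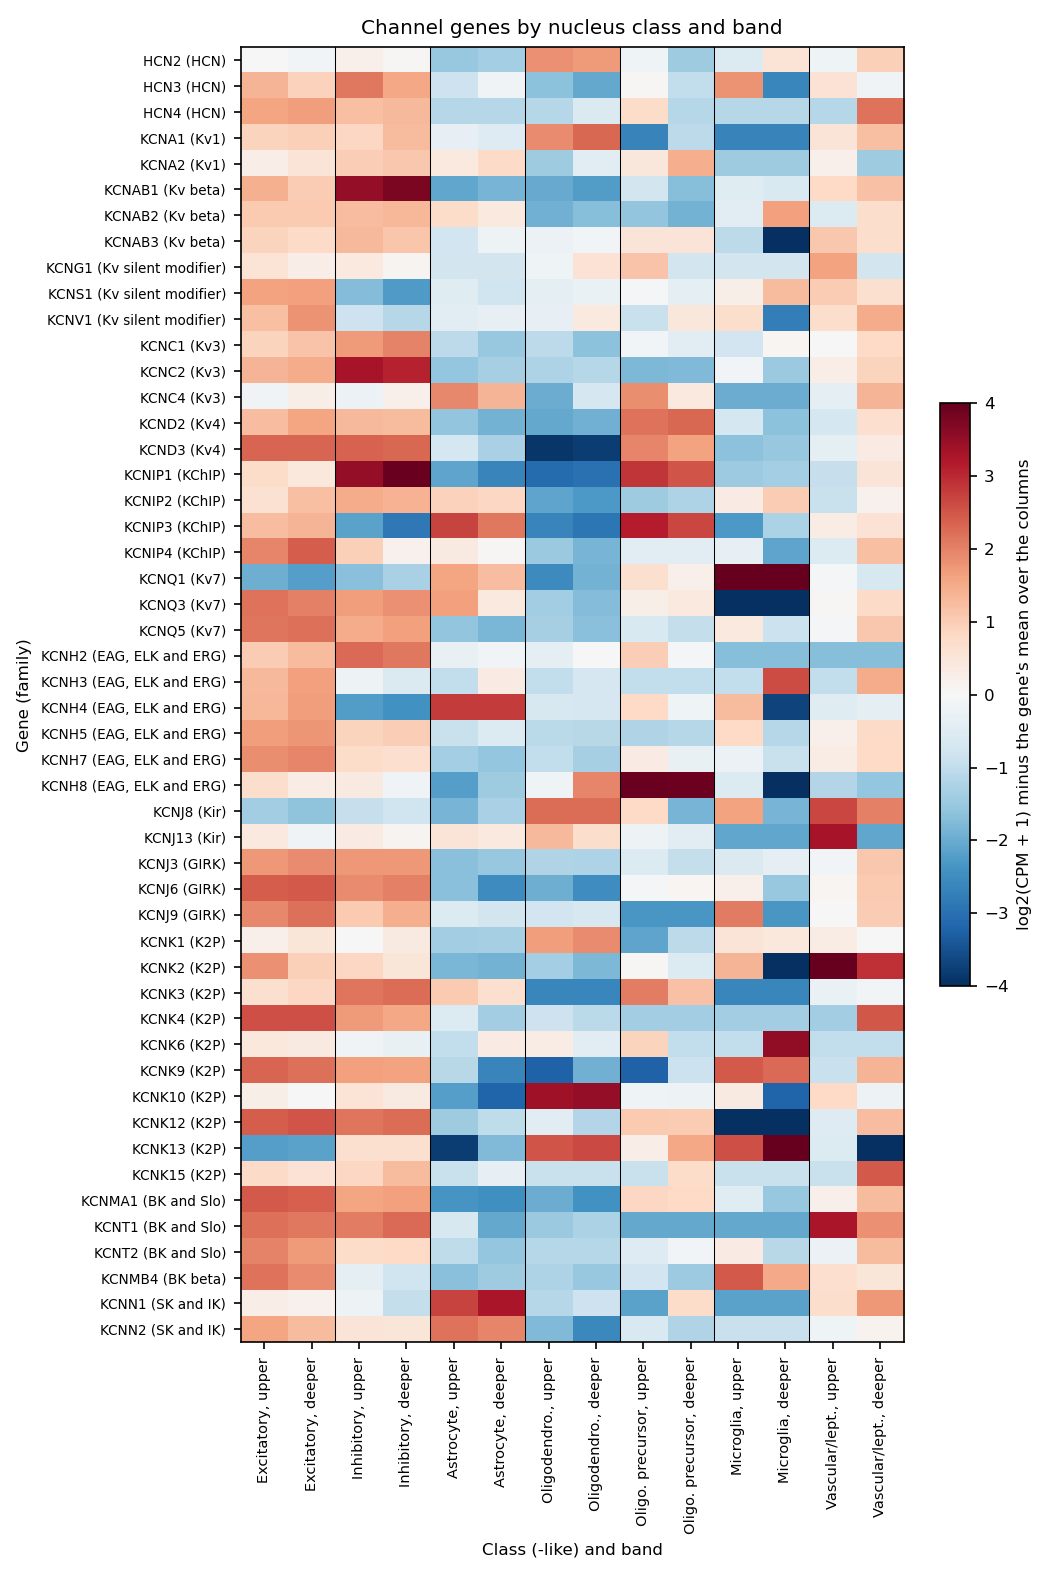
Level of 50 of the 55 members with at least 50 UMIs in the named classes of each library (rows, with their family) in 7 classes and both bands (columns), as log2(CPM + 1) minus the gene's own mean over the 14 columns; red is above that mean and blue below. Most rows are red in the 4 neuronal columns, with islands of red such as KCNK10 in oligodendrocyte-like, KCNH8 in precursor-like, KCNQ1 in microglia-like and KCNK2 in vascular columns.

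Among the HCN subunits, oligodendrocyte-like nuclei and neurons differed from gene to gene. HCN2, a subunit strongly modulated by cyclic AMP, was highest in oligodendrocyte-like nuclei at 109.9 (96.0 to 125) and 101 (91.2 to 111) CPM. Its excitatory level was 29.5 and 28.1 CPM and its inhibitory level 35.0 and 30.9 CPM. The deeper-band interval of oligodendrocyte-like nuclei overlapped that of the small vascular class (26.5 and 59.4 CPM), so the first rank is clear only in the upper band. HCN3 and HCN4 were mainly neuronal, HCN3 at 25.3 and 17.0 CPM in inhibitory and 14.7 and 10.7 CPM in excitatory nuclei, and HCN4 at 5.7 and 6.08 CPM in excitatory and 4.11 and 4.49 CPM in inhibitory nuclei.

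Among the Kv1 (shaker) subunits, only KCNA1 and KCNA2 of 8 could be ranked. KCNA1, an axonal subunit whose mutations cause episodic ataxia, had 23.0 and 30.7 CPM in oligodendrocyte-like nuclei against 10.9 and 11.4 CPM in excitatory and 10.4 and 14.4 CPM in inhibitory nuclei. KCNA2, its usual partner in axons, was at 4.22 and 4.65 CPM in inhibitory nuclei and 2.18 and 2.83 CPM in excitatory nuclei, and its highest class differed between the libraries. The beta subunits that attach to Kv1 channels were better measured. KCNAB1, which lends Kv1 channels fast inactivation, reached 978 (957 to 999) and 1163 (1137 to 1190.3) CPM in inhibitory nuclei and 226 and 171 CPM in excitatory nuclei. KCNAB2 differed little between them, with 99.9 and 108 CPM in inhibitory and 88.3 and 88.1 CPM in excitatory nuclei, and KCNAB3 had 55.4 and 48.9 and 41.6 and 37.9 CPM in the same order of classes.

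The silent modifiers KCNS1 and KCNV1, which make no channel alone and alter the channels they join, were excitatory-high. KCNS1 had 28.1 and 28.4 CPM in excitatory against 1.88 and 0.961 CPM in inhibitory nuclei, the inhibitory values resting on 16 and 6 UMIs. KCNV1 had 14.8 and 22.7 CPM in excitatory and 2.82 and 2.08 CPM in inhibitory nuclei. The other silent modifiers were sparse: KCNF1, KCNG4, KCNS2, KCNS3 and KCNV2 did not reach the minimum, and KCNG1 had 1.45 and 1.01 CPM in excitatory nuclei.

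Kv3 subunits let fast-spiking cells fire at high rates. KCNC2 (Kv3.2) stood out in inhibitory nuclei at 3343 (3304 to 3382) and 2898 (2856 to 2940.2) CPM, with 878 and 952 CPM in excitatory nuclei. After thinning every nucleus to 1500 UMIs, 91.1% and 89.8% of inhibitory nuclei had a KCNC2 UMI, against 19.5% and 20.2% of oligodendrocyte-like and 17.4% and 17.2% of astrocyte-like nuclei, classes that are not known for it; without thinning the shares were 97.8% and 97.4%, 27.2% and 24.5% and 30.2% and 26.6% at median depths of 7596 and 7291, 2200 and 1856, and 2804 and 2420 UMIs. The part of free RNA in the glial shares was not tested. KCNC1 (Kv3.1) had 172 and 209 CPM in inhibitory and 97.7 and 115 CPM in excitatory nuclei. KCNC4 (Kv3.4) was low in neurons, 2.61 and 3.69 CPM in excitatory nuclei, and higher in astrocyte-like nuclei at 14.1 and 9.02 CPM, on 17 and 18 UMIs.

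Kv4 subunits carry the dendritic A-type current. KCND2 (Kv4.2) was highest in oligodendrocyte precursor-like nuclei at 1586 (1461 to 1719) and 1707 (1592 to 1829) CPM, above 831 and 1041 CPM in excitatory and 856 and 836 CPM in inhibitory nuclei. KCND3 (Kv4.3) was level between the neuronal classes, 328 and 329.7 CPM in excitatory and 341 and 321 CPM in inhibitory nuclei, with 257 and 199.5 CPM in precursor-like and 3.42 and 3.71 CPM in oligodendrocyte-like nuclei. The KChIP proteins, calcium-binding subunits that bring Kv4 to the surface and set its inactivation, each had another distribution. KCNIP1 was inhibitory-high at 999 (978 to 1021) and 1355 (1326 to 1384) CPM, with 628 and 496 CPM in precursor-like nuclei and 143 and 115 CPM in excitatory nuclei. KCNIP2 was at 46.9 and 44.1 CPM in inhibitory and 25.2 and 38.4 CPM in excitatory nuclei. KCNIP3, also known as the repressor DREAM, was highest in precursor-like nuclei at 489 and 353 CPM and in astrocyte-like nuclei at 355 and 236 CPM, and within neurons it had 129 and 140.3 CPM in excitatory against 11.6 and 6.57 CPM in inhibitory nuclei. KCNIP4 was excitatory-high, 200.3 and 274 CPM against 99.9 and 57.5 CPM in inhibitory nuclei.

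Among the Kv7 (KCNQ) channels, KCNQ3 and KCNQ5, which help carry the muscarine-sensitive M-current of neurons, were highest in excitatory nuclei of both libraries. KCNQ5 had 619 and 645 CPM in excitatory and 398 and 441 CPM in inhibitory nuclei, and KCNQ3 had 74.3 and 66.5 and 52.4 and 58.3 CPM in the same order of classes. KCNQ1, best known from the heart, was highest in microglia-like nuclei at 415 (298 to 563) and 465 (335 to 628) CPM, on 41 and 42 UMIs, where neurons had 5.14 and 4.58 CPM and astrocyte-like nuclei 67.2 and 52.1 CPM. Named classes held 386 of 556 and 387 of 510 KCNQ1 UMIs, and the others lay in clusters without a class name. After thinning, 47.8% and 60.0% of microglia-like nuclei held a KCNQ1 UMI against 0.793% and 0.519% of neurons, though only 23 and 10 microglia-like nuclei reached 1500 UMIs; unthinned shares were 49.1% and 46.5% and 5.12% and 4.3% at median depths of 1304 and 1162 and of 10070 and 9918 UMIs. The KCNE genes in the matrices, small partners of KCNQ1, were at 0 UMIs.

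The ether-a-go-go group is divided into EAG, ELK and ERG channels. KCNH7 (ERG3) was excitatory-high, 304 and 328 CPM against 138 and 133 CPM in inhibitory nuclei, and KCNH5 (EAG2) had 243 and 259 CPM against 141 and 148 CPM. KCNH2 (hERG, the channel of drug-induced long QT) ran the other way at 5.48 and 6.7 CPM in excitatory and 14.7 and 12.8 CPM in inhibitory nuclei. Of the 3 ELK channels, KCNH3 had 3.84 and 5.22 CPM in excitatory and 0.704 and 0.32 CPM in inhibitory nuclei. KCNH4 was highest in astrocyte-like nuclei at 89.6 (73.5 to 108) and 89.7 (77.1 to 104) CPM, followed by 31.3 and 40.3 CPM in excitatory nuclei and only 1.76 and 1.44 CPM in inhibitory nuclei. KCNH8 was highest in precursor-like nuclei at 249 (201 to 305) and 246 (203 to 294) CPM, with 25.2 and 18.9 CPM in excitatory nuclei and a level in oligodendrocyte-like nuclei that differed between bands, described below.

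Of the G-protein-gated (GIRK) channels, which slow firing under GABA-B and other receptors, KCNJ6 (GIRK2) was highest in excitatory nuclei at 861 and 873 CPM with 592 and 650.2 CPM in inhibitory nuclei. KCNJ3 (GIRK1) was nearly level, 799 and 896 CPM in excitatory and 803 and 793 CPM in inhibitory nuclei, and KCNJ9 (GIRK3) had 18.1 and 22.1 and 9.5 and 12.8 CPM in these classes. KCNJ5 had 6 and 5 UMIs in all. The classical inward rectifiers were almost absent from the counts. KCNJ10 (Kir4.1), the principal potassium channel of astrocytes, had 4 and 8 UMIs over all kept nuclei and 1 and 4 in astrocyte-like nuclei, and its partner KCNJ16 (Kir5.1) had 2 and 2 in all. These astrocyte-like nuclei held 12 of 12 listed astrocyte markers above 0, with a summed level of 11593 and 12472 CPM. The nuclei were named by these markers, so the marker level does not show how well KCNJ10 was captured. Why the KCNJ10 counts were low was not tested. KCNJ8 (Kir6.1, a pore of ATP-sensitive channels) was at 16.1 and 16.1 CPM in oligodendrocyte-like and 22.5 and 13.7 CPM in vascular nuclei. KCNJ13 (Kir7.1) was at 9.28 and 5.94 CPM in oligodendrocyte-like nuclei, its highest class in the deeper band only. In the upper band KCNJ13 was highest in vascular nuclei at 40.8 CPM. Its log2 ratio there over oligodendrocyte-like nuclei was 2.14 (1.16 to 3.12).

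Tandem-pore (K2P) channels differed in class from gene to gene. KCNK10 (TREK-2) was highest in oligodendrocyte-like nuclei at 1172 (1126 to 1219.9) and 1276 (1241 to 1311) CPM, where excitatory nuclei had 131 and 111 CPM and astrocyte-like nuclei 23.2 and 11.0 CPM. After thinning, 70.4% and 69.7% of oligodendrocyte-like nuclei had a KCNK10 UMI against 2.94% and 2.52% of astrocyte-like nuclei, with 76.9% and 70.7% and 6.44% and 2.72% before thinning. KCNK1 (TWIK-1) was at 159 and 187 CPM in oligodendrocyte-like against 57.0 and 69.0 CPM in excitatory nuclei. KCNK2 (TREK-1), the closest relative of KCNK10 described here, was instead highest in vascular nuclei at 1159.9 (1066 to 1259) and 361 (286 to 450.0) CPM, and had 171 and 91.5 CPM in excitatory nuclei. Summed excitatory markers in the vascular class were 443 and 1019 CPM and its own markers 3441 and 3697 CPM, so its make-up differed between libraries, and the part of this in the KCNK2 values was not tested. KCNK13 (THIK-1), the channel of the microglial resting current, was highest in microglia-like nuclei at 152 (85.0 to 251) and 476 (344 to 641) CPM on 15 and 43 UMIs, with 143 and 158 CPM in oligodendrocyte-like, 38.5 and 38.8 CPM in inhibitory and 4.52 and 4.78 CPM in excitatory nuclei. In the upper band this first rank is not clear of oligodendrocyte-like nuclei, with a log2 ratio of 0.09 (-0.77 to 0.83). Named classes held 824 of 1142 and 1154 of 1714 KCNK13 UMIs, and the others lay in clusters without a class name. Summed oligodendrocyte markers in microglia-like nuclei were 972 and 442 CPM against 13406 and 13588 CPM in oligodendrocyte-like nuclei. Their part in the KCNK13 values was not tested. The acid-sensitive TASK channels parted within neurons, KCNK3 (TASK-1) at 25.7 and 27.4 CPM in inhibitory against 8.36 and 9.66 CPM in excitatory nuclei and KCNK9 (TASK-3) at 46.4 and 42.2 CPM in excitatory against 28.4 and 27.7 CPM in inhibitory nuclei. KCNK9 also had the highest level in microglia-like nuclei, but on 5 and 4 UMIs. KCNK12 (THIK-2) was neuronal, 85.7 and 91.5 CPM in excitatory and 69.8 and 74.3 CPM in inhibitory nuclei, and KCNK4 (TRAAK) had 14.7 and 14.7 and 7.63 and 6.73 CPM.

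Among channels opened by calcium or sodium, KCNMA1 was highest in excitatory nuclei at 2966 and 2852 CPM, against 1623 and 1669.8 CPM in inhibitory nuclei. Its neuronal beta subunit KCNMB4, which slows BK gating, was more one-sided, 192 and 159 CPM in excitatory and 32.3 and 23.6 CPM in inhibitory nuclei, while KCNMB1 and KCNMB3 had 12 and 10 and 25 and 24 UMIs in all. The sodium-activated channel KCNT2 (Slick) was excitatory-high at 661 and 551 CPM against 278 and 289.8 CPM, and KCNT1 (Slack) was level between these neuronal classes at 18.1 and 17.0 and 16.1 and 19.2 CPM. In the upper band KCNT1 was highest in vascular nuclei at 38.8 CPM. The small-conductance channels that follow trains of spikes were raised in astrocyte-like nuclei: KCNN2 (SK2) stood at 1114 and 960.1 CPM there, 742 and 594 CPM in excitatory and 350.0 and 344 CPM in inhibitory nuclei, and KCNN1 (SK1) had 27.4 and 41.1 CPM in astrocyte-like and 4.27 and 3.97 CPM in excitatory nuclei. KCNN4, a channel of immune cells, had 18 and 38 UMIs in all, of which 2 and 7 were in microglia-like nuclei (20.3 and 77.4 CPM). Only 7 and 14 of the KCNN4 UMIs lay in named classes. The others were in clusters without a class name. Such clusters included one led by FGD2, IL7R, IKZF1 and CSF1R, the last a listed microglia marker.

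Set against each other, excitatory and inhibitory nuclei differed in which subunits of the same complexes they held. Excitatory nuclei had more of the silent modifiers KCNS1 and KCNV1, more of the BK beta subunit KCNMB4 and more KCNIP3, KCNIP4, KCNH3, KCNH4 and KCNH7. Inhibitory nuclei had more Kv3.2, more of the Kv1 beta subunit KCNAB1, and more KCNIP1, KCNK3 and KCNK13. A member was counted as higher or lower where its level differed at least 2-fold in the same direction in both libraries, among genes with at least 50 UMIs over the 2 classes in each. By this rule 10 of 53 members were higher in excitatory nuclei, where 7.44% of 14156 genes were, and 6 of 53 were lower, where 7.03% of all genes were. The median log2 ratio was 0.17 over the 53 members and -0.09 over all genes tested. 

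KCNH4 had log2 ratios of excitatory over inhibitory of 4.15 (3.43 to 5.00) and 4.81 (3.88 to 5.94). KCNS1 had 3.90 (3.20 to 4.72) and 4.88 (3.76 to 6.33) and KCNIP3 3.47 (3.18 to 3.77) and 4.42 (3.97 to 4.90). KCNMB4 was at 2.57 and 2.76, KCNH3 at 2.45 (1.29 to 3.92) and 4.03 (2.15 to 7.08) and KCNV1 at 2.39 (1.80 to 3.04) and 3.45 (2.67 to 4.36). KCNH7 was at 1.15 (1.06 to 1.23) and 1.30 (1.20 to 1.40). KCNIP4 only just reached the rule in the upper band, at 1.00 and 2.25. For KCNK6 the 2-fold rule was met on few UMIs, with intervals of 1.02 (-0.11 to 2.39) and 1.31 (-0.12 to 3.23) that include no difference. On the inhibitory side KCNK13 had -3.09 (-3.37 to -2.82) and -3.02 (-3.31 to -2.74), KCNIP1 -2.80 (-2.85 to -2.75) and -3.55 (-3.61 to -3.50) and KCNAB1 -2.11 (-2.16 to -2.07) and -2.76 (-2.81 to -2.71). KCNC2 had -1.93 (-1.95 to -1.91) and -1.61 (-1.63 to -1.58) and KCNK3 -1.62 and -1.50. Dominance of a subfamily by 1 class was thus uneven: within the KChIPs, KCNIP3 and KCNIP4 lay on the excitatory and KCNIP1 on the inhibitory side, and within the ether-a-go-go group 3 members lay on the excitatory side while KCNH2 had -1.42 and -0.94.

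**Figure D2:**
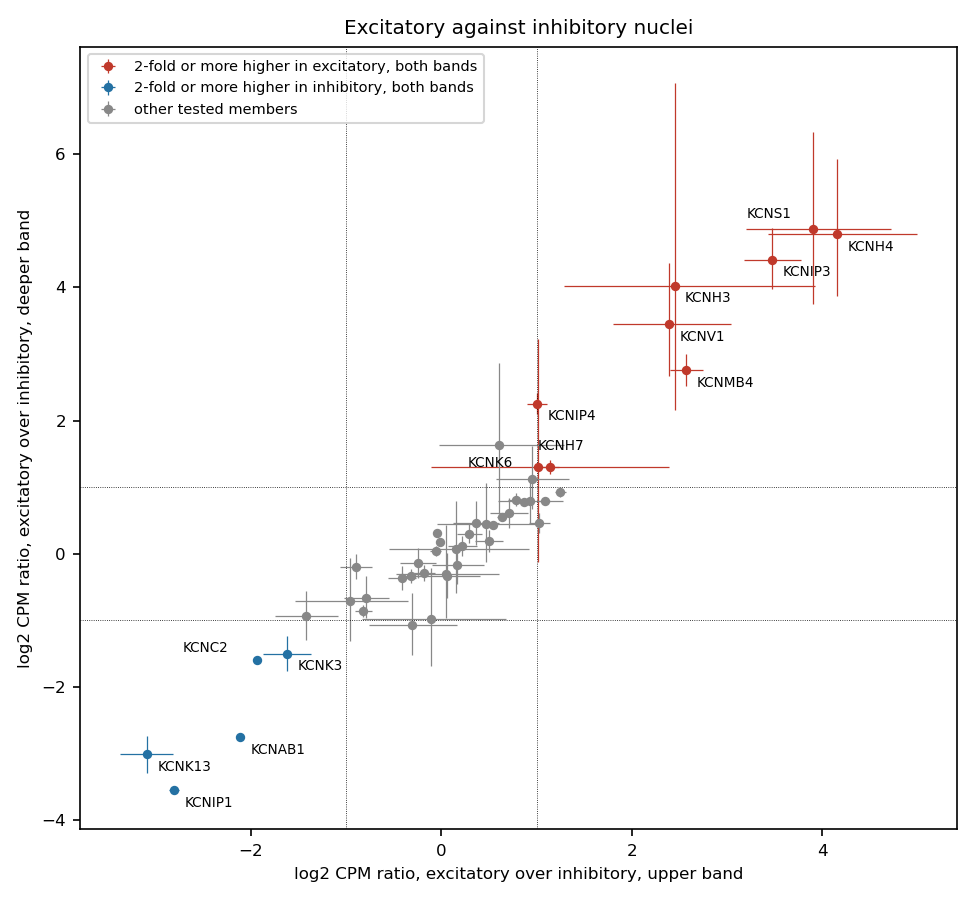
Log2 CPM ratio of excitatory over inhibitory nuclei for 48 of the 53 members tested, in the upper band (horizontal axis) and the deeper band (vertical axis), with 95% counting intervals; dotted lines mark 2-fold. The 9 red members lie at or past 2-fold in excitatory and the 5 blue ones in inhibitory nuclei.

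Among inhibitory nuclei, those resembling cells of the medial ganglionic eminence (MGE, the source of PVALB and SST cells) and of the caudal one (CGE, the source of VIP and other cells) held different channel sets. By the same 2-fold rule 7 of 39 members were higher in MGE-like nuclei (4.16% of 8997 genes) and 5 lower (3.85%). On the CGE-like side KCNK13 had 90.7 and 86.7 CPM against 7.94 and 10.8 CPM in MGE-like nuclei, with log2 ratios of MGE-like over CGE-like of -3.52 (-4.08 to -2.98) and -3.01 (-3.55 to -2.49). KCNT2 had 684 and 774 CPM in CGE-like nuclei, with log2 ratios of -2.85 (-3.01 to -2.69) and -2.75 (-2.91 to -2.59), and KCNQ5 814 and 1068 CPM against 188 and 179 CPM, with log2 ratios of -2.11 (-2.24 to -1.99) and -2.58 (-2.71 to -2.45). KCNQ5 and KCNT2 were thus higher in excitatory than in inhibitory nuclei as a whole, though neither met the 2-fold rule there. Their CGE-like levels were above the excitatory ones, for KCNT2 only slightly in the upper band (684 against 661 CPM). KCNN2 and KCNK2 were also CGE-like-high, KCNN2 with log2 ratios of -1.51 and -1.93. On the MGE-like side KCNK10 had 203 and 181 CPM against 58.4 and 31.2 CPM, with log2 ratios of 1.80 (1.53 to 2.08) and 2.54 (2.12 to 2.98). KCNT1 had log2 ratios of 1.69 and 2.27, KCNIP2 of 1.67 and 1.89, KCNK12 of 1.36 and 1.73 and KCNA1 of 1.56 and 1.27. KCND2 and KCNQ3 met the rule narrowly in 1 band each, at 1.01 and 1.85 and at 1.33 and 1.00. KCNC2 did not reach 2-fold in the upper band but was higher in MGE-like nuclei in both, 3564 and 3359.9 CPM against 1844 and 1381 CPM.

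Within excitatory nuclei, few channel genes differed between the layer classes, among them KCNK2. KCNK2 had 531 and 548 CPM in deep-layer-like and 41.9 and 27.9 CPM in upper-layer-like nuclei, log2 ratios of upper-layer-like over deep-layer-like of -3.67 (-3.85 to -3.49) and -4.30 (-4.44 to -4.16). By the 2-fold rule 2 of 48 members were higher in upper-layer-like nuclei (4.59% of 11462 genes) and 3 were lower (4.64%), shares close to those of all genes. The higher ones were KCNH8 at 25.9 and 15.4 CPM against 4.78 and 2.98 CPM, with log2 ratios of 2.44 (1.92 to 2.99) and 2.37 (1.32 to 3.70) and KCNIP4 at 278 and 311 CPM against 91.0 and 97.9 CPM, with log2 ratios of 1.61 (1.49 to 1.74) and 1.67 (1.48 to 1.86). Besides KCNK2, KCNMB4 was lower in upper-layer-like nuclei, with log2 ratios of -1.01 (-1.13 to -0.89) and -1.25 (-1.37 to -1.13), as was KCNK13, with log2 ratios of -2.10 (-3.04 to -1.25) and -4.34 (-4.87 to -3.82), whose deep-layer-like level was 8.91 and 42.6 CPM. Over 11 alternatives of the processing, the weakest log2 ratios of KCNMB4 were -0.57 and -0.74, under 2-fold. Those of KCNK13 were -0.94 and -1.65 and those of KCNK2 -2.09 and -2.98. These layer classes hold only part of the excitatory nuclei, since 10 of 19 subclusters had no layer name. The subcluster with the highest KCNH8 was among those without a layer name.

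Levels also differed between subclusters. Of 53 members with enough UMIs, 13 were highest in the same excitatory subcluster in both libraries and at least 2-fold above the median subcluster in each, over 17 subclusters with at least 20 nuclei in both bands. The same rule took 8.42% of 13474 genes. A subcluster led by IQCA1L, CACHD1 and NPR3, with 139 and 23 nuclei and no layer name, had the highest KCNN2 (2070.4 and 2023 CPM, median subcluster 607 and 638) and KCNK10 (250.4 and 284 CPM, median 112 and 121). It also held 69 of the 89 excitatory UMIs of KCNG4, a silent modifier, in the upper band and 6 of 21 in the deeper band. A deep-layer-like subcluster led by GFRA1 and TRPC7 (73 and 87 nuclei) had the highest KCNAB1 (756 and 743 CPM, median 161 and 107), KCNMB4 (456 and 403 CPM, median 187 and 185) and KCNK13 (46.2 and 92.6 CPM, median 3.14 and 2.43). KCNAB1 in these nuclei remained below its inhibitory level. KCNH4 was highest in an upper-layer-like subcluster led by CYP2S1 and SYT2 (140 and 204 nuclei), at 77.3 and 66.9 CPM, and KCNIP3 in an unnamed one led by TMEM132C and PTH1R (48 and 22 nuclei), at 342 and 429.9 CPM. A subcluster led by PDGFD and MME (229 and 206 nuclei), without a layer name, held the highest KCNH8, 193 and 111 CPM against a median of 5.23 and 4.15 CPM. It held 446 of 926 KCNH8 UMIs of the 17 subclusters in the upper band and 228 of 724 in the deeper band. The deep-layer-like subcluster led by KLHL14 and HHLA2 (155 and 25 nuclei) had the highest KCNIP1 (833 and 652 CPM, median 46.0 and 52.1) and KCNT2 (1466 and 1528 CPM, median 641 and 564). KCNH5 and KCNK3 were highest in the FOXP2-positive deep-layer-like subcluster led by RXFP1 (356 and 113 nuclei), KCNH5 at 549 and 545 CPM against a median of 182 and 191 CPM.

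**Figure D3:**
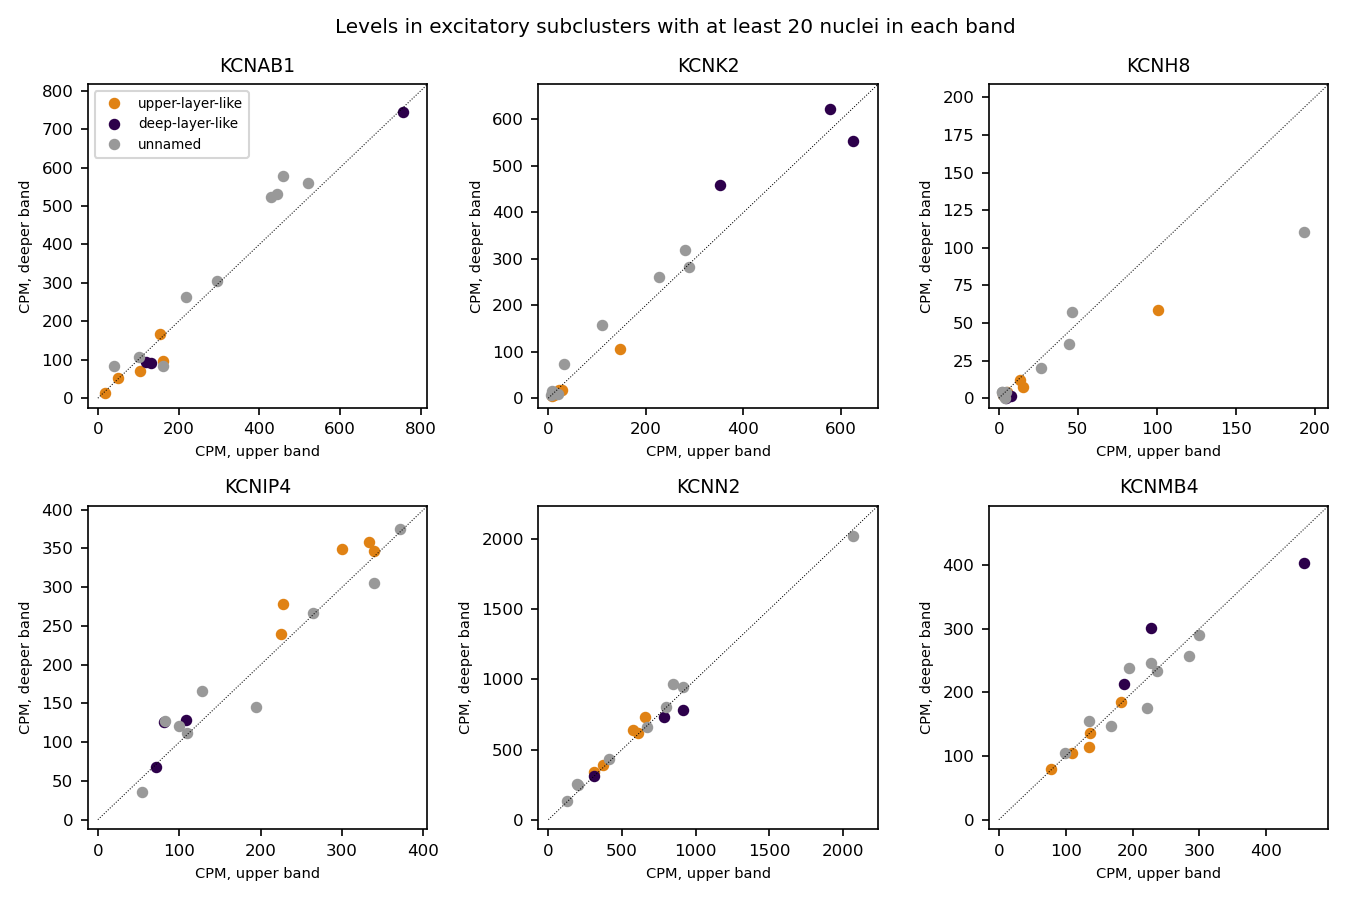
Level of 6 members in 17 excitatory subclusters with at least 20 nuclei in each band, upper band on the horizontal and deeper band on the vertical axis (CPM, linear); colours give the layer name and the dotted line marks equal levels. KCNH8 lies below the line at its highest points, KCNK2 is highest in the 3 deep-layer-like subclusters, KCNIP4 is higher in upper-layer-like than in deep-layer-like ones, 1 deep-layer-like subcluster stands apart for KCNAB1 and 1 unnamed one for KCNN2.

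Inhibitory subclusters did the same for 11 of 39 members (8.47% of 9108 genes), over 14 subclusters. The CGE-like subcluster led by MYLK, CDH23 and CALB2 (75 and 95 nuclei) had the highest KCNT2, 1618 and 1297 CPM against a median of 104 and 97.4 CPM, and the highest KCNK2, 381 and 191 CPM against 57.3 and 64.7 CPM. KCNK13 peaked in the NDNF subcluster (74 and 27 nuclei) at 156 and 181 CPM, median 14.3 and 48.2, and KCNQ5 in the subcluster led by COL5A3 and SCGN (33 and 59 nuclei) at 1202 and 1699 CPM, median 351 and 323. KCNH5 peaked in the PAX6 subcluster (42 and 38 nuclei) at 449 and 594 CPM, median 98.9 and 102. On the MGE-like side KCND2 peaked in the TAC1 subcluster (84 and 20 nuclei) at 1530.4 and 1542 CPM and KCNIP2 and KCNH7 in the subcluster led by TFCP2L1 and WNT16 (50 and 48 nuclei), KCNIP2 at 112 and 105 CPM and KCNH7 at 293 and 347 CPM. KCNAB2 peaked in the subcluster led by CASQ2 (34 and 66 nuclei) at 244 and 222 CPM and KCNQ3 in the one led by ADAMTS5 and GLI2 (79 and 69 nuclei) at 148 and 127 CPM. KCNIP4 was highest in an unnamed subcluster led by OSTN and GALNT5, which had 127 nuclei in the upper and 33 in the deeper band, at 217 and 324 CPM against a median of 33.0 and 24.6 CPM.

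Neurons and glia were compared with all excitatory and inhibitory nuclei pooled. Most members were neuronal, but each glial class also had a small set that exceeded neurons. By the 2-fold rule this set was a smaller share of members than of all genes in each glial class, as given below. Free RNA in droplets can put neuronal UMIs into glial nuclei, which were shallower, with median depths of 1121 to 2865 UMIs against 7291 to 10746.5 in neurons. The level of 12 listed neuronal genes that are not members was therefore measured in the same way. Their median level in astrocyte-like nuclei was 24.6% and 18.1% of that in neurons, and in oligodendrocyte-like nuclei 20.8% and 27.9%, with NRGN highest at 303% and 80.9% in astrocyte-like and 357% and 120% in oligodendrocyte-like nuclei. The members' median was 13.9% and 21.4% in astrocyte-like and 11.3% and 11.6% in oligodendrocyte-like nuclei. In precursor-like nuclei the median of the reference genes was 12.9% and 22.1% with NRGN highest at 489% and 169%, and in microglia-like nuclei it was 33.6% and 24.8% with RBFOX3 highest at 146% in the upper and NRGN at 446% in the deeper band. In the vascular class it was 63.3% and 72.7%, with NEUROD2 highest at 1167% and NRGN at 184%. NEUROD2 was close to undetected, with no UMI in inhibitory nuclei of either library, so its percentage rests on few UMIs. Some glial levels above those of neurons lay within the range of these reference genes. Among them were KCND2 in precursor-like and KCNK9 in microglia-like nuclei in both bands. In the upper band alone they included KCNN2 in astrocyte-like nuclei, KCNK1, KCNA1 and KCNJ13 in oligodendrocyte-like nuclei, KCNIP3, KCNK13 and KCNIP1 in precursor-like nuclei and KCNK2 in the vascular class. For KCNK2 the top of that range was the NEUROD2 value. The part of free RNA in glial levels was not tested.

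Against astrocyte-like nuclei, 35 of 53 members were at least 2-fold higher in neurons in both libraries, where 17.8% of 14412 genes were, and 4 were lower (13.4%). The median log2 ratio of neurons over astrocyte-like nuclei was 2.15 over the members and 0.04 over all genes. KCNMA1 had 4.69 (4.44 to 4.95) and 4.79 (4.58 to 5.00) and KCNJ6 4.03 (3.66 to 4.42) and 4.96 (4.57 to 5.37). The 4 astrocyte-high members were KCNQ1 at -3.71 (-4.08 to -3.33) and -3.51 (-3.86 to -3.15), KCNN1 at -2.77 (-3.31 to -2.19) and -3.51 (-3.91 to -3.11), KCNH4 at -1.80 (-2.08 to -1.50) and -1.36 (-1.59 to -1.13) and KCNC4 at -2.46 (-3.20 to -1.63) and -1.30 (-2.01 to -0.51). KCNN2 was higher in astrocyte-like nuclei than in neurons as a whole but under 2-fold, at -0.73 and -0.78, and KCNIP3 had -1.73 and -0.96, so neither met the rule in both libraries.

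Against oligodendrocyte-like nuclei, 40 of 55 members were higher in neurons (25.7% of 14424 genes) and 7 lower (13.6%), with a median log2 ratio of 2.95 over the members and 0.11 over all genes. On the neuronal side KCND3 had 6.59 (5.55 to 7.91) and 6.47 (5.75 to 7.31). On the oligodendrocyte side stood KCNJ8 at -5.00 (-5.84 to -4.19) and -5.58 (-6.50 to -4.76), KCNK13 at -3.72 (-3.93 to -3.51) and -4.05 (-4.23 to -3.87) and KCNK10 at -3.10 (-3.17 to -3.03) and -3.47 (-3.52 to -3.41). HCN2 had -1.85 (-2.05 to -1.64) and -1.82 (-1.99 to -1.66), KCNK1 -1.52 (-1.69 to -1.35) and -1.45 (-1.57 to -1.34), KCNA1 -1.09 (-1.52 to -0.63) and -1.38 (-1.66 to -1.08) and KCNJ13 -1.06 (-1.74 to -0.30) and -1.01 (-1.65 to -0.32). KCNJ8 pairs with the sulfonylurea receptor ABCC9, a listed partner that was also oligodendrocyte-high at -2.87 and -3.78.

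Oligodendrocyte precursor-like nuclei were compared in the same way. There 28 of 53 members were higher in neurons (10.1% of 14221 genes) and 4 lower (9.91%), and the median log2 ratio was 1.43 over the members and 0 over all genes. KCNC2 stood on the neuronal side at 3.80 and 3.63. The precursor-high members were KCNH8 at -3.36 (-3.67 to -3.04) and -3.76 (-4.04 to -3.46), KCNIP3 at -2.20 (-2.41 to -1.97) and -1.54 (-1.76 to -1.31), KCNQ1 at -2.76 (-3.56 to -1.83) and -2.46 (-3.30 to -1.48) and KCNK13 at -1.44 (-2.29 to -0.43) and -2.95 (-3.45 to -2.41). KCND2 was above its neuronal level but under 2-fold in both libraries, at -0.92 and -0.75, and KCNMA1 had 965 and 941 CPM in precursor-like nuclei. Against the few microglia-like nuclei, 19 of 53 were higher in neurons (8.02% of 14183 genes) and 2 lower (14.0%), namely KCNQ1 at -6.34 (-6.82 to -5.82) and -6.66 (-7.15 to -6.15) and KCNK13 at -3.81 (-4.54 to -2.96) and -5.64 (-6.10 to -5.16). Scaling by the median of gene ratios instead of totals moved all log2 ratios of this last comparison by 0.52 and 0.62.

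**Figure D4:**
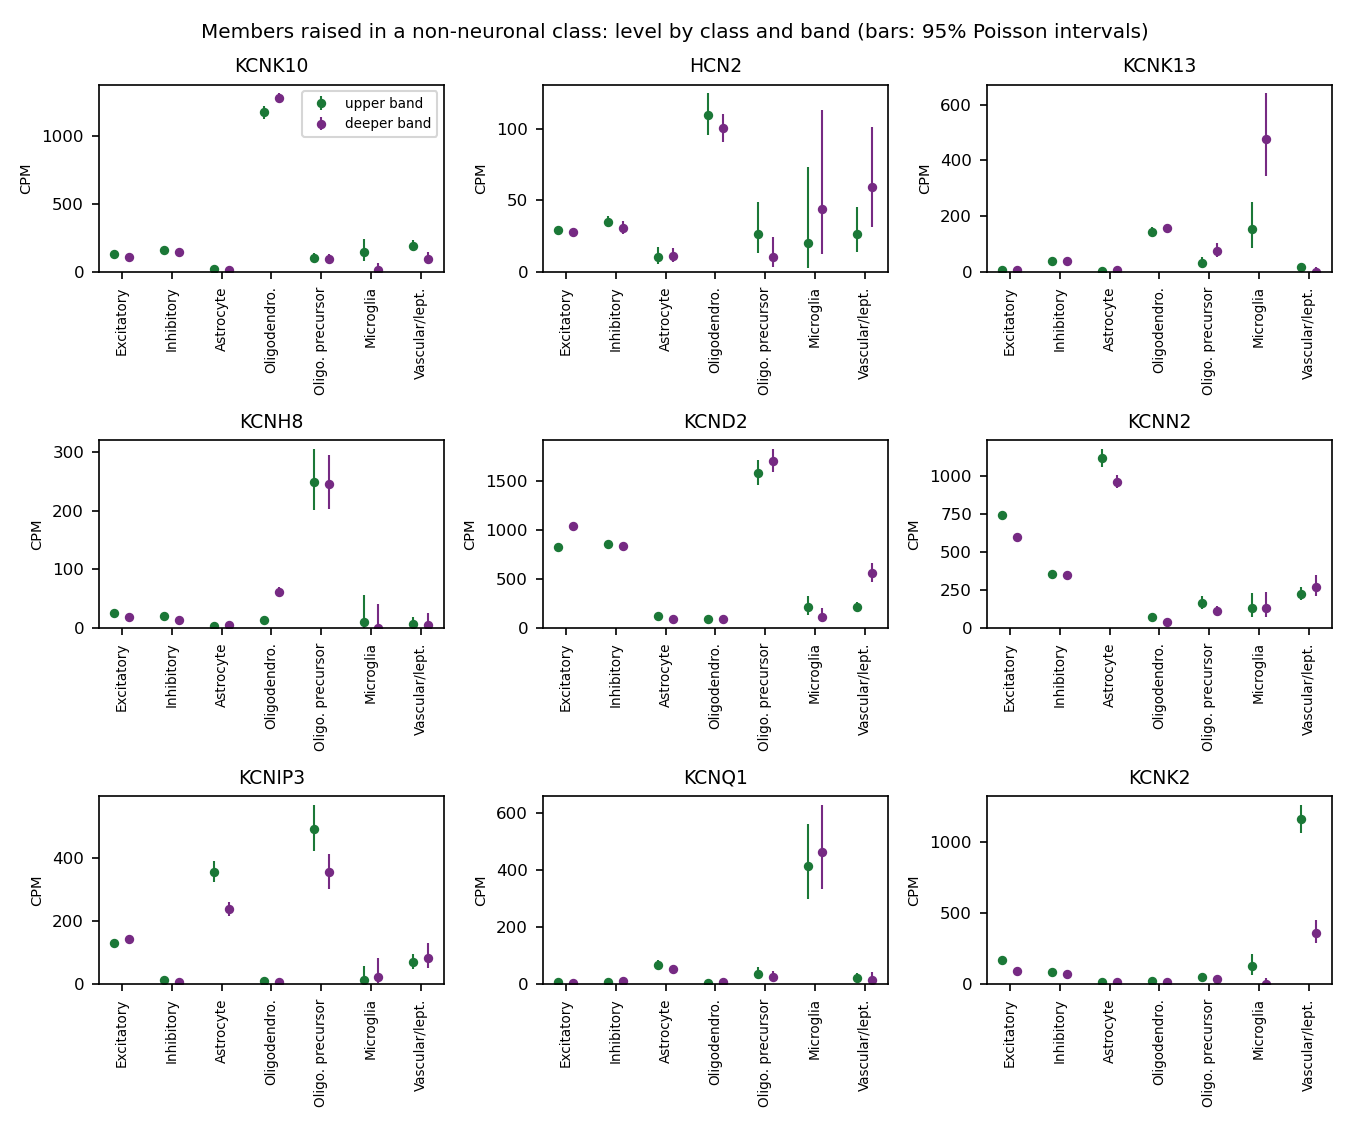
Level in CPM (linear axes from 0) of 9 members that exceeded neurons in at least 1 other class, in 7 classes and both bands; points are levels from summed UMIs and bars 95% Poisson intervals. KCNK10 and HCN2 are highest in oligodendrocyte-like, KCNH8, KCND2 and KCNIP3 in precursor-like, KCNN2 in astrocyte-like, KCNQ1 and KCNK13 in microglia-like and KCNK2 in vascular nuclei, and KCNH8 in oligodendrocyte-like nuclei differs between bands.

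Between bands, channel levels in excitatory nuclei were mostly alike, and the named exceptions were KCNK2, KCNG4 and KCNJ13 lower and KCNIP2, KCNV1, KCNA4 and KCNJ2 higher in the deeper band. The rule here was 1.5-fold with at least 50 UMIs over both bands. By it 4 of 57 members were higher (4.33% of 15573 genes) and 3 lower (7.60%), and the median log2 ratio of deeper over upper band was 0.04 over members and -0.03 over all genes. KCNK2 went from 171 to 91.5 CPM, a log2 ratio of -0.90 (-0.96 to -0.84). As the bands held different shares of subclusters, the ratio was recomputed with 17 subclusters weighted to the same mix in both, over 2960 and 3442 nuclei. KCNK2 was then at 0.13 (0.05 to 0.20), with the sign turned. Only 3 of the 4 deep-layer-like subclusters, where KCNK2 was highest, had at least 20 nuclei in both bands and entered this mix. KCNIP2 went from 0.61 (0.49 to 0.73) to 0.09 (-0.05 to 0.23) and KCNV1 from 0.62 (0.47 to 0.78) to 0.41 (0.23 to 0.60). KCNG4 stood at -2.13 (-2.89 to -1.43) on 89 and 21 UMIs and at -0.72 (-1.59 to 0.16) in the same mix, an interval that includes no difference. KCNJ2 had 16 and 45 UMIs, with 1.44 (0.59 to 2.36) and 0.45 (-0.49 to 1.40). KCNA4 (31 and 61 UMIs) kept its ratio, 0.93 (0.28 to 1.60) and 1.10 (0.37 to 1.83), as did KCNJ13, -0.65 (-1.01 to -0.30) and -0.60 (-1.01 to -0.19). In the same mix 2 of 57 members were higher (3.08% of all genes) and 3 lower (2.87%), and KCNH8 at -0.64 (-0.79 to -0.48) and KCNA2 at 0.64 (0.14 to 1.14) passed 1.5-fold there but not as sampled.

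In inhibitory nuclei 2 of 45 members were lower in the deeper band (3.69% of 11889 genes) and 0 higher (3.45%), and the median log2 ratio was 0.04 over members and -0.0036 over all genes. KCNIP4 went from 99.9 to 57.5 CPM, a log2 ratio of -0.80 (-0.98 to -0.62), and KCNIP3 from 11.6 to 6.57 CPM, a log2 ratio of -0.82 (-1.38 to -0.28). With 14 subclusters weighted to the same mix over 865 and 693 nuclei, KCNIP4 turned to 0.24 (0.03 to 0.46) and KCNIP3 was at -0.32 (-0.91 to 0.27), and 0 members passed 1.5-fold (3.46% of all genes higher and 2.95% lower). The unnamed subcluster with the most KCNIP4 was the one with 127 and 33 nuclei.

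**Figure D5:**
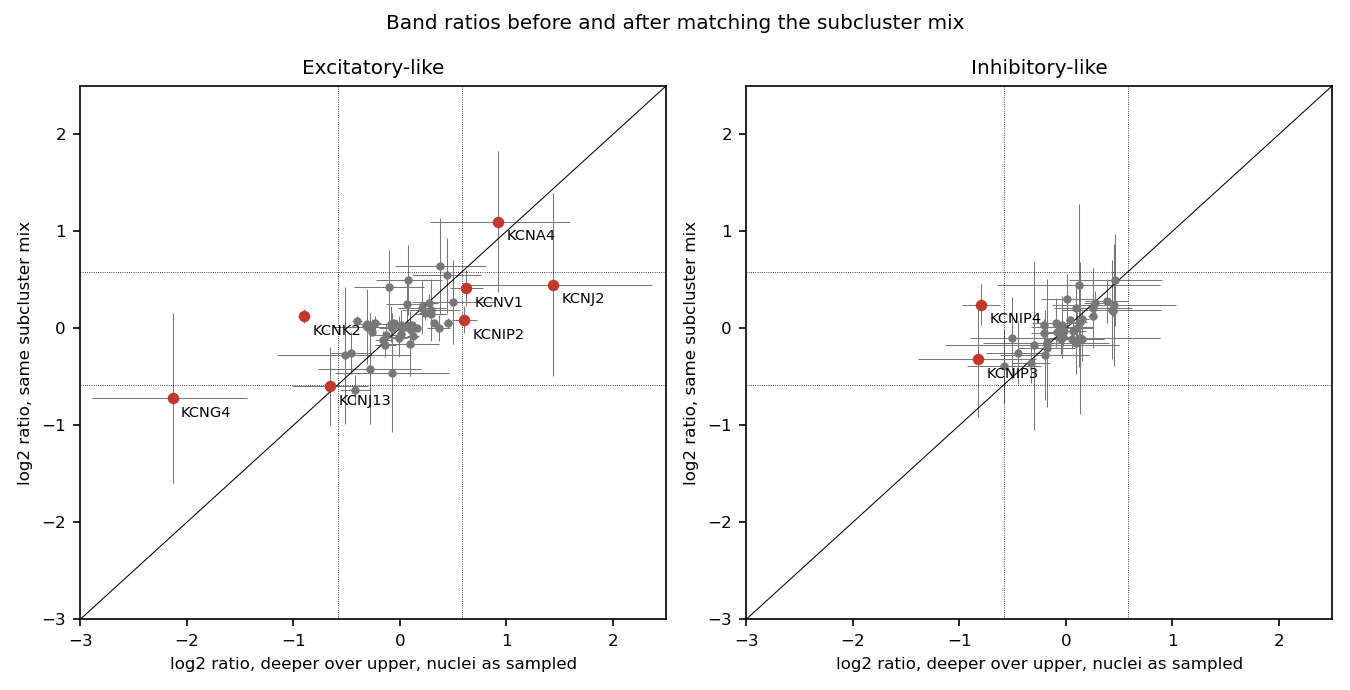
Log2 ratio of deeper over upper band for members in excitatory (left, 52 members) and inhibitory (right, 40 members) nuclei, as sampled (horizontal axis) and with subclusters weighted to the same mix (vertical axis), with 95% counting intervals; red points passed 1.5-fold (dotted lines) as sampled and the solid line marks equality. KCNK2, KCNIP2 and KCNIP4 lie off the line and near 0 on the vertical axis, while KCNA4 and KCNJ13 lie close to it.

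In oligodendrocyte-like nuclei 1 of 27 members was higher in the deeper band (3.97% of 8720 genes) and 3 lower (2.97%). The higher one was KCNH8, which went from 13.2 (8.69 to 19.2) to 61.4 (54.0 to 69.5) CPM, on 27 and 248 UMIs, a log2 ratio of 2.22 (1.64 to 2.85). The difference was present in both oligodendrocyte-like clusters, at 9.13 and 58.3 CPM in the cluster led by SLC5A11 and at 19.0 and 63.7 CPM in the one led by OPALIN. The share of nuclei with a KCNH8 UMI was 1.88% and 7.03%, and 1.69% and 6.13% after thinning to 1500 UMIs. Summed precursor markers in these nuclei were 145 and 133 CPM (7 genes, COL9A1 at 0 in both) and summed excitatory markers 188 and 159 CPM. KCNH8 in excitatory, inhibitory and precursor-like nuclei was at 25.2 and 18.9, 19.6 and 13.8 and 249 and 246 CPM. The part of other nuclei and of free RNA in the KCNH8 difference was not tested. Band, animal and library preparation cannot be told apart. Among the lower members were KCNN2 at -0.83 (-1.16 to -0.50) and KCNC1 at -0.63 (-1.18 to -0.07). Their oligodendrocyte levels were below those in neurons. With both oligodendrocyte-like clusters weighted to the same mix, the same 4 members passed (3.92% of all genes higher and 3.38% lower).

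In astrocyte-like nuclei 2 of 26 members were higher (5.27% of 7502 genes) and 5 lower (3.87%) in the deeper band. The lower ones were KCNQ3 at -1.30 (-1.91 to -0.70), from 50.6 to 20.6 CPM, KCNK10 at -1.07 (-1.95 to -0.22), KCNJ6 at -0.88 (-1.44 to -0.32), KCND3 at -0.61 (-1.20 to -0.01) and KCNIP3 at -0.59 (-0.78 to -0.40). KCNN1 at 0.59 (-0.01 to 1.22) and KCNAB3 at 0.61 (-0.28 to 1.58) passed 1.5-fold upwards with intervals that include no difference. Levels from other classes moved with these: the median of the 12 neuronal reference genes was 24.6% and 18.1% of neurons and summed excitatory markers were 215 and 175 CPM, and their part in the 5 lower values was not tested. KCNIP3 was above its neuronal level in both bands. Within the single astrocyte-like cluster with at least 20 nuclei in both bands (384 and 731 nuclei), 1 of 23 members was higher (4.32% of all genes), KCNN1, and 5 lower (4.24%), KCNC1, KCND3, KCNJ6, KCNQ3 and KCNT2. KCNIP3 was at -0.54 (-0.73 to -0.35) there, under 1.5-fold, and KCNK10 at -1.17 (-2.04 to -0.30) but under the minimum of 50 UMIs. In precursor-like nuclei 1 of 16 members passed, KCNH7 at -0.63 (-1.36 to 0.08), where 4.00% of 3396 genes were lower and 4.95% higher.

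Partner proteins of these channels were taken from a list of 25 anchoring, trafficking and auxiliary proteins, of which 24 were found. Between excitatory and inhibitory nuclei 4 of 23 were higher and 2 lower by the 2-fold rule, where 7.44% and 7.03% of all genes were. LINGO1, an auxiliary protein of BK channels, was excitatory-high at 1.88 (1.67 to 2.09) and 2.18 (1.94 to 2.43), and the BK gamma subunits split, LRRC55 on the excitatory side and LRRC38 at -5.61 and -7.89 on the inhibitory side. DLG1, a scaffold of Kv channels, had 1.43 and 1.40 and NEDD4L, a ubiquitin ligase of KCNQ channels, 1.31 and 1.42. Against oligodendrocyte-like nuclei 12 of 23 partners were higher in neurons and 5 lower, where 25.7% and 13.6% of all genes were. The Kv4 partners DPP6 and DPP10 were neuronal at 3.33 and 3.95 and at 3.36 and 3.39, whereas PEX5L, the HCN trafficking protein TRIP8b, was oligodendrocyte-high at -2.53 and -2.25, as were ANK3, the organizer of the axon initial segment, at -1.87 and -1.83 and CNTN2, an adhesion protein beside the node, at -2.83 and -3.11. PEX5L and HCN2 thus lay on the same side in oligodendrocyte-like nuclei.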

How the data were processed

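UMI counts per gene and barcode were deposited as 1 filtered matrix per band, made from 10x Genomics droplet libraries with software version 3.1.0 per the file headers. The submitters' processing notes name Cell Ranger 6.2.1 and 2.1.1. The genome build, annotation and handling of intronic reads are not given in the sources used here.

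Barcodes with at least 500 genes were kept. Scrublet scores removed 843 and 1397 nuclei as doublets, 11.9% and 14.5%, against 5.67% and 7.69% from a rate of 0.8% per 1000 barcodes. Both libraries were clustered together with scanpy 1.11.5 (2000 variable genes without the channel genes, 30 components, 15 neighbours, Leiden resolution 1), and excitatory and inhibitory nuclei were clustered again. Clusters were named from marker lists when at least 3 markers were raised and no other class led: 25 of 28 were named. No correction for free RNA was made.

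UMIs were summed per class and library. Levels have exact Poisson intervals, shares exact Clopper-Pearson intervals and ratios exact conditional binomial intervals, at 95%, from scipy 1.17.1; ratios at a matched mix use a normal approximation. A count of 0 was floored at 3 counts per library. PCR and sampling of nuclei add error that these intervals do not cover. Classes were compared at 2-fold for genes with at least 50 UMIs in each library, and bands at 1.5-fold for genes with at least 50 UMIs over both bands. Named genes were up to 8 members in each direction with the largest fold among those passing, ranked by the smaller of the 2 libraries' ratios, and the members of each family by role. Members outside this rule and subclusters singled out were chosen after their values were seen. The members and lists were chosen with earlier results of these data known. The scripts were tested on simulated data. Some members are counted but not reported by name or drawn here.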

Additional observations from a re-analysis of the deposited data

Results flagged for a closer look

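The difference between bands had opposite signs in different classes for 2 members, each with an interval that did not include 0; the difference between the classes was not tested. KCNH8 had a log2 ratio of deeper over upper band of -0.42 in excitatory and -0.51 in inhibitory nuclei and of 2.22 in oligodendrocyte-like nuclei. KCNIP4 had 0.45 in excitatory and -0.80 in inhibitory nuclei, and in inhibitory nuclei the sign turned at a matched subcluster mix.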

How the results depend on the processing

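No paired analysis was possible because each band is a single library, so none could be left out either. Across the alternatives, 105 counts of members stayed within 1.5 times their main value and 26 did not. Of single values, 1713 stayed inside the counting interval of the main value, 194 left it and 4 turned sign. The cause was not tested. Counts below are members called in either direction. Between bands in precursor-like nuclei, 1 member became 2 without doublet removal, 2 with the expected rate of doublets removed, 3 with each library clustered on its own, 3 with the mean of CPM per nucleus, 2 with median-of-ratios scaling and 0 with a minimum of 200 UMIs. In inhibitory nuclei, 2 became 1 with the expected rate, with 1000 genes, at resolution 0.5 and with 200 UMIs, 4 with the mean of CPM and 4 with nuclei thinned to 1500 UMIs, and 0 at the same subcluster mix. In astrocyte-like nuclei, 7 became 4 with 1000 genes, 4 with members allowed in clustering, 4 with the mean of CPM, 3 thinned and 1 with 200 UMIs. In excitatory nuclei, 7 became 2 thinned and 4 with 200 UMIs, and in oligodendrocyte-like nuclei 4 became 8 thinned and 2 with 200 UMIs. Between classes, neurons against microglia went from 21 to 9 with members allowed in clustering and 12 thinned, MGE-like against CGE-like from 12 to 7 thinned and the layer classes from 5 to 2 thinned. The sign turned for KCNIP3 between bands in inhibitory nuclei (0.49 without doublet removal, 0.32 with the expected rate), and at the same subcluster mix for KCNK2 in excitatory (0.13) and KCNIP4 in inhibitory nuclei (0.24). With median-of-ratios scaling the astrocyte band split went from 2 higher and 5 lower to 1 and 5. The comparison of glia at the same mix of clusters was chosen after seeing the data and left 1 cluster in astrocyte-like nuclei. Astrocyte-like nuclei could not be named without doublet removal, nor microglia-like nuclei with 1000 genes or at resolution 0.5, so those gave no value. KCNH8 in oligodendrocyte-like nuclei stayed between 2.02 and 2.42 over 12 alternatives.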

Other observations

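One cluster without a class name, led by ABCA9 and ENPP6, had 72 nuclei in the upper and 490 in the deeper band, and its raised markers were mostly those of oligodendrocytes. KCNK10, the tandem-pore channel that was high in oligodendrocyte-like nuclei, had 1258 and 830.2 CPM there, and HCN2 had 85.8 and 88.1 CPM. KCNK13 reached 276 and 281 CPM, above its oligodendrocyte-like level of 143 and 158 CPM. KCNH8 had 0 and 3 UMIs in this cluster, too few to compare its level between the bands here. The 3 UMIs came from 490 deeper-band nuclei, so the cluster lay below the deeper-band oligodendrocyte-like level of 61.4 CPM.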
